A study of Mus musculus with 12 samples.

Results

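The genes described here are 10 human genes of interleukin-6 (IL6) receptor signaling and of the hepatic acute phase response: IL6R, IL6ST, STAT3, SOCS3, CRP, SAA1, SAA4, HP, LBP and ORM1. They were taken by symbol from a table of 36292 human gene symbols, which held all 10, and 8 of them passed a filter on low counts. Hep3B, a line of human hepatocellular carcinoma, was grown as flank tumors in female BALB/c nu/nu mice about 8 weeks old, and the RNA of whole tumor fragments was sequenced. Such mice lack a thymus and mature T cells. Of the 12 tumors, 3 from separate mice came from each of 4 groups: vehicle, H3B-6527 (300 mg/kg daily), lenvatinib (10 mg/kg daily), and a combination of both agents at these doses. H3B-6527 inhibits the FGF receptor FGFR4 selectively, and lenvatinib inhibits VEGF and FGF receptors among other kinases. All mice, the vehicle group included, were dosed by gavage once tumors averaged some 500 mm3, and the tumors were removed 8 hours past dose 4. All tumors derive from 1 cell line, so the replicates are mice and not independent tumor genotypes.

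IL6 signals to hepatocytes through IL6R, its binding receptor, and IL6ST (gp130), the signal-transducing chain shared by the cytokines of the family. IL6ST activates JAK kinases, which phosphorylate the transcription factor STAT3. Phosphorylated STAT3 then raises transcription of SOCS3, the feedback inhibitor of the pathway, and, with C/EBP and NF-kB factors, of acute phase proteins that the liver secretes into plasma. Transcript counts do not report STAT3 phosphorylation.

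Library totals ran from 23.8 to 40.9 M (mega) counts, the smallest being H3B-6527 replicate 3. Levels are CPM, the count per M of a library's total after TMM scaling. They are compared between groups and not between genes, because gene lengths were not used. All 10 hepatocyte lineage markers looked up were above 1 CPM. Their summed level was 92198 to 101340 CPM with vehicle, 142340 to 202650 with H3B-6527, 98671 to 120700 with lenvatinib and 171370 to 192150 with the combination. ALB makes up a large part of this sum; gene by gene, 7 of the 10 were higher with H3B-6527 than with vehicle and 3 were not called, with AHSG at a log2 fold change of -0.24. DUSP6, a feedback phosphatase of FGFR-MAPK signaling, fell from 80.6 ± 11.2 CPM with vehicle to 5.13 ± 2.46 with H3B-6527 (SD, n = 3). In bulk tumors, fewer cells of a type and less RNA per cell cannot be told apart.

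With H3B-6527, 7 of the 8 members tested were higher than with vehicle and none was lower, at an adjusted p under 0.05 by edgeR's quasi-likelihood test over 15836 genes. The background was large: 49.4% of all genes tested were called, 25.2% as higher and 24.3% as lower. With the combination the same 7 members were higher, against a background of 50.1% called, 24.8% higher and 25.3% lower. Groups without overlap were also common. Of all genes tested, 56% had no overlap between H3B-6527 and vehicle tumors, with 4446 genes higher in every H3B-6527 tumor. Between combination and vehicle tumors 64.6% had no overlap, with 5037 genes higher in every combination tumor. Among all genes called, 50.9% were rises with H3B-6527 and 49.5% with the combination. Scaled by library totals alone, which took the median log2 fold change of all genes to -0.11 and -0.14 from 0.01 in both, these shares were 37.9% and 35.4%, and all 7 members kept their direction. The 7 were IL6R, IL6ST, CRP, SAA4, HP, LBP and ORM1, while STAT3 did not pass. With lenvatinib alone no member passed, and 0% of all genes did. CRP and LBP passed the filter only through H3B-6527 and combination tumors, so a count over the members tested leans towards rises in those groups.

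**Figure D1:**
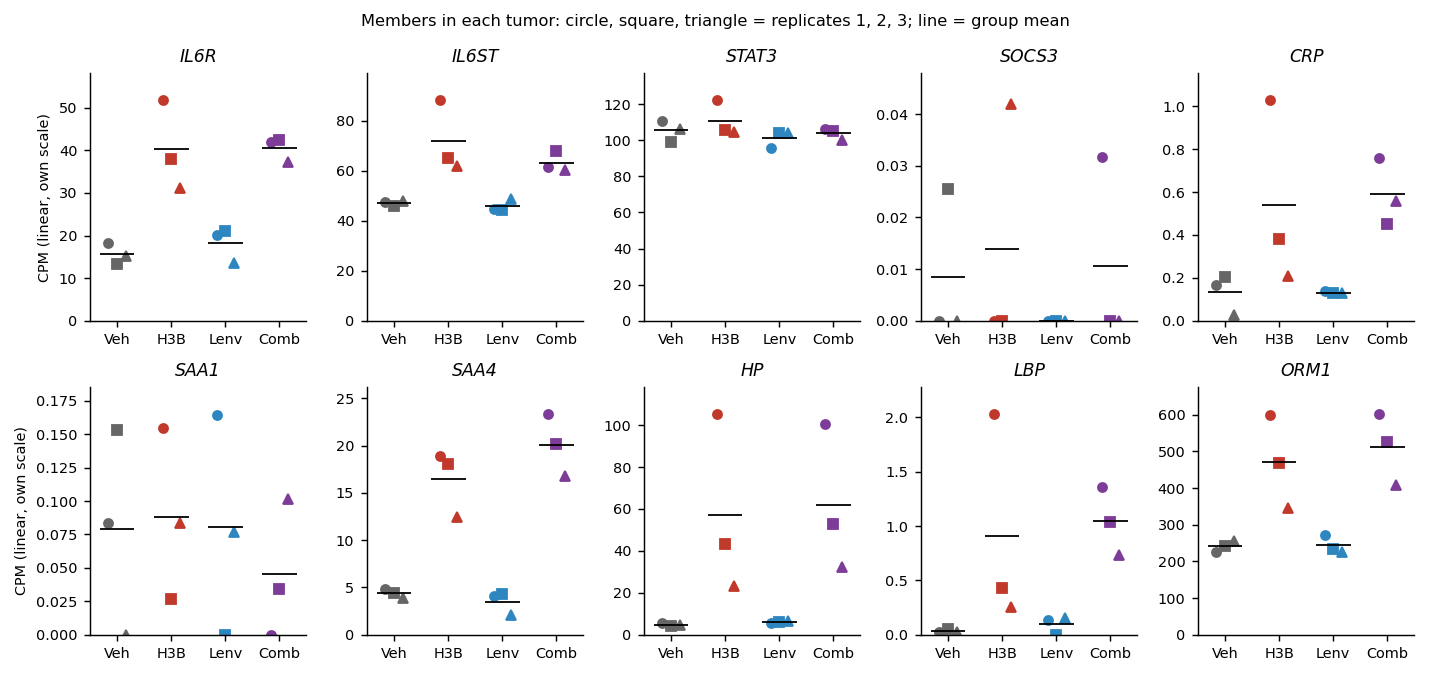
CPM (y axis, linear from 0, a separate scale for each gene) of the 10 members in each of the 12 tumors by group (x axis: Veh, vehicle; H3B, H3B-6527; Lenv, lenvatinib; Comb, combination). Symbols are single tumors and lines are group means. For 7 genes all H3B-6527 and combination tumors lie above all vehicle tumors, STAT3 overlaps, and SOCS3 and SAA1 are near 0. Of all genes tested, 56% had no overlap between H3B-6527 and vehicle tumors and 64.6% between combination and vehicle tumors, in either direction.

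IL6R, the receptor chain that binds IL6, measured 18.2, 13.4 and 15.3 CPM in the vehicle tumors. With H3B-6527 it measured 51.9, 38.1 and 31.2 CPM, and with the combination 41.9, 42.4 and 37.4 CPM. Every tumor of both groups lay above every vehicle tumor. The log2 fold change against vehicle was 1.37 ± 0.20 (SE) with H3B-6527, a 2.59-fold rise (edgeR adjusted p = 0.000141), and 1.38 ± 0.20 with the combination (edgeR adjusted p = 0.000138). Lenvatinib tumors measured 20.1, 21.1 and 13.6 CPM and overlapped the vehicle tumors (log2 fold change 0.22 ± 0.20, edgeR adjusted p = 0.756).

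IL6ST, the shared signaling chain, was even among vehicle tumors at 47.3, 45.7 and 47.8 CPM. It measured 88.3, 65.1 and 61.9 CPM with H3B-6527 and 61.6, 67.8 and 60.2 CPM with the combination. Neither group overlapped vehicle. The log2 fold change was 0.61 ± 0.12 with H3B-6527 (edgeR adjusted p = 0.000769) and 0.43 ± 0.12 with the combination (edgeR adjusted p = 0.00742). The combination's call was lost when libraries were scaled by their totals alone (log2 fold change 0.28, edgeR adjusted p = 0.0503). Lenvatinib tumors, at 44.7, 44.4 and 48.5 CPM, overlapped vehicle.

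STAT3, the transcription factor downstream of IL6ST, had nearly the same level in all 4 groups. It measured 111, 99.1 and 106 CPM with vehicle and 122, 106 and 104 CPM with H3B-6527. The lenvatinib tumors held 95.6, 104 and 104 CPM and the combination tumors 106, 105 and 100.3 CPM. All groups overlapped vehicle. The log2 fold change was 0.07 with H3B-6527 (95% interval -0.10 to 0.25, edgeR adjusted p = 0.483) and -0.02 with the combination (95% interval -0.19 to 0.16, edgeR adjusted p = 0.867). Scaled by library totals, the H3B-6527 value turned to -0.05.

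SOCS3, a direct STAT3 target and the inhibitor that acts on IL6ST, had 3 counts over all 12 libraries, with at most 1 in any library. It was left out by the filter, and no difference between groups was detectable at this depth. IL6 itself had 8 counts in all, in 5 libraries.

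Of the acute phase proteins, HP encodes haptoglobin, which binds free hemoglobin. Vehicle tumors measured 5.58, 4.13 and 4.44 CPM. H3B-6527 tumors measured 105, 43.2 and 23.4 CPM, and combination tumors 101, 52.6 and 32.3 CPM. Each treated tumor was above every vehicle tumor, but the highest of each group was several times its lowest. The log2 fold change was 3.61 ± 0.57 with H3B-6527, 12.2-fold (edgeR adjusted p = 0.000457), and 3.71 ± 0.57 with the combination, 13.1-fold (edgeR adjusted p = 0.000386). Without H3B-6527 replicate 1 the first of these was 2.83 (edgeR adjusted p = 0.00122). Lenvatinib tumors at 5.51, 5.90 and 6.72 CPM overlapped vehicle (log2 fold change 0.36 ± 0.57, edgeR adjusted p = 0.885).

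SAA4 encodes the constitutive serum amyloid A, a high-density lipoprotein protein that changes little in a classical acute phase. It measured 4.80, 4.43 and 3.86 CPM with vehicle, 18.9, 18.1 and 12.4 with H3B-6527, and 23.4, 20.2 and 16.7 with the combination. The tumors of both treated groups lay apart from vehicle. SAA4's log2 fold change was 1.92 ± 0.24 with H3B-6527 (edgeR adjusted p = 5.21e-05) and 2.20 ± 0.24 with the combination (edgeR adjusted p = 2.05e-05). With lenvatinib, SAA4 measured 4.05, 4.33 and 2.05 CPM, and its lowest tumor lay below all vehicle tumors (log2 fold change -0.34 ± 0.26, edgeR adjusted p = 0.7). SAA1, the inducible serum amyloid A, had 32 counts over the 12 libraries and at most 6 in any of them. It was left out by the filter, so that of the pair only the constitutive gene could be tested.

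ORM1 encodes orosomucoid (alpha-1-acid glycoprotein), a plasma protein that binds drugs and lipids. Its levels were 225, 243 and 256 CPM with vehicle, 599.8, 470 and 345 with H3B-6527, and 603, 526 and 408 with the combination. No treated tumor overlapped vehicle. ORM1 had a log2 fold change of 0.96 ± 0.18 with H3B-6527 (edgeR adjusted p = 0.000924) and 1.08 ± 0.18 with the combination (edgeR adjusted p = 0.000407). Lenvatinib tumors held 271, 234 and 226 CPM and overlapped vehicle.

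LBP, the plasma protein that presents bacterial lipopolysaccharide to CD14, was close to 0 with vehicle: 4 counts over 3 tumors, or 0.028, 0.051 and 0.026 CPM. H3B-6527 tumors measured 2.03, 0.434 and 0.251 CPM and combination tumors 1.36, 1.04 and 0.737 CPM. Replicate 1 stood above the other H3B-6527 tumors, and all treated tumors were above vehicle. The pooled counts were 101 with H3B-6527 against 4, a depth-scaled ratio of 28.7 (95% exact binomial interval 10.9 to 107, which covers counting error only). For the combination they were 102 against 4, a ratio of 28.9 (10.9 to 108). Fitted log2 fold changes were 4.60 ± 0.97 (edgeR adjusted p = 0.00192) and 4.74 ± 0.96 (edgeR adjusted p = 0.00147). Without H3B-6527 replicate 1 the first was 3.20 (edgeR adjusted p = 0.0048), and with voom it was 3.87 (limma adjusted p = 0.00986). With lenvatinib 11 counts were found, in 2 of 3 tumors.

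CRP, the pentraxin used as a clinical marker of the acute phase, was also low. Vehicle tumors measured 0.168, 0.204 and 0.026 CPM, from 15 counts. H3B-6527 tumors measured 1.03, 0.379 and 0.209 CPM and combination tumors 0.759, 0.449 and 0.559 CPM, each from 59 counts. The lowest H3B-6527 tumor was barely above the highest vehicle tumor, whereas the combination tumors were all well above. CRP's log2 fold change was 2.05 ± 0.62 with H3B-6527 (edgeR adjusted p = 0.0147) and 2.12 ± 0.62 with the combination (edgeR adjusted p = 0.0119). The H3B-6527 call was lost without H3B-6527 replicate 1 (log2 fold change 1.18, edgeR adjusted p = 0.127), without vehicle replicate 3 (1.57, edgeR adjusted p = 0.0566), and when only the vehicle and H3B-6527 libraries were fitted (2.05, edgeR adjusted p = 0.0603). Lenvatinib tumors held 14 counts, and their values of 0.137, 0.128 and 0.128 CPM lay within the vehicle range.

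**Figure D2:**
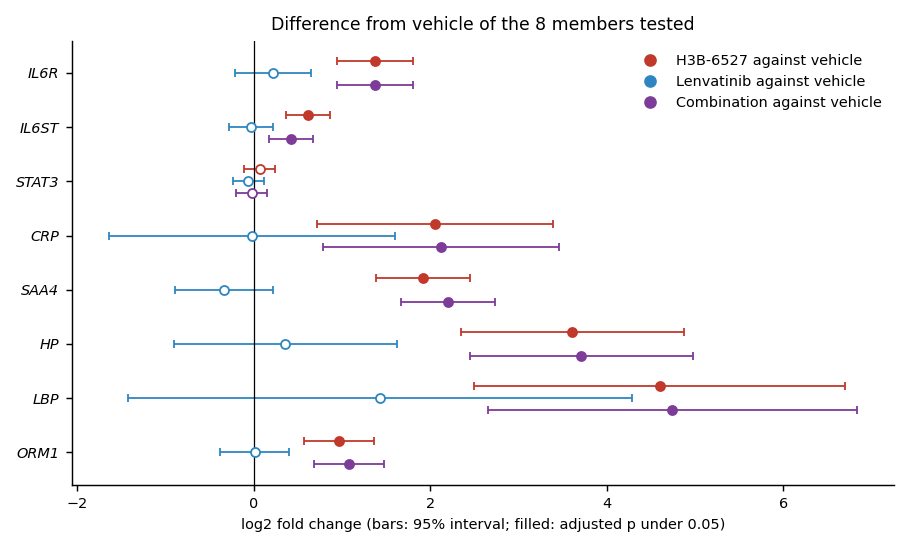
Log2 fold change against vehicle (x axis) of the 8 members tested (y axis) for H3B-6527, lenvatinib and the combination. Bars are 95% intervals and filled points have an adjusted p under 0.05: 7 genes are filled for H3B-6527 and for the combination, none for lenvatinib.

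For lenvatinib against vehicle, no member had an unadjusted p under 0.05 (0 of 8). Over all genes edgeR called 0, with 1698 at an unadjusted p under 0.05, and other tools called more: 245 with DESeq2 and 8 with voom. The intervals of the members do not exclude sizeable differences for the low genes: the 95% interval of the log2 fold change was -1.63 to 1.61 for CRP, -1.42 to 4.29 for LBP and -0.90 to 1.62 for HP. They were narrow for STAT3 (-0.23 to 0.12) and IL6ST (-0.28 to 0.22).

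The agents were also compared with each other. Against lenvatinib, the same 7 members were higher with H3B-6527 and with the combination, and STAT3 was not called in either (edgeR adjusted p = 0.212 and 0.727). The background was 41.1% of all genes called for H3B-6527 against lenvatinib, 20.5% as higher, and 40.0% for the combination against lenvatinib, 19.1% as higher. Both comparisons use the lenvatinib tumors, as the comparisons above share the vehicle tumors, so their results are not independent. HP was 9.51-fold higher with H3B-6527 (edgeR adjusted p = 0.00118) and 10.2-fold higher with the combination (edgeR adjusted p = 0.00112) than with lenvatinib. Without H3B-6527 replicate 1 the first was 5.54-fold (edgeR adjusted p = 0.0035), and summed with HPR they were 6.34-fold and 6.27-fold. The CRP and LBP calls rest on few tumors. For H3B-6527 against lenvatinib, LBP lost its call without H3B-6527 replicate 1 (edgeR adjusted p = 0.0556), and CRP lost it without that tumor (0.146), without lenvatinib replicate 2 (0.0559) or without lenvatinib replicate 3 (0.0561). For the combination against lenvatinib, CRP lost its call without lenvatinib replicate 2 (0.0505), lenvatinib replicate 3 (0.0513) or combination replicate 1 (0.0589).

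Adding lenvatinib to H3B-6527 gave no called difference in any member, with 0.0126% of all genes called. The 95% interval of the log2 difference, combination minus H3B-6527, was -0.41 to 0.42 for IL6R, -0.43 to 0.06 for IL6ST, -0.21 to 0.77 for SAA4, -0.27 to 0.51 for ORM1, -0.27 to 0.08 for STAT3, -0.99 to 1.20 for HP, -1.06 to 1.20 for CRP and -1.21 to 1.496 for LBP. Differences of up to about these sizes are therefore not excluded. A contrast of the combination with the sum of both single agents on the log2 scale called no member, and 0% of all genes (854 at an unadjusted p under 0.05; DESeq2 called 18). The smallest unadjusted p among the members was that of SAA4, 0.0941, with a contrast of 0.62 ± 0.34.

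The members varied together among the H3B-6527 tumors. In all 8 of the members tested, replicate 1 was the highest, replicate 2 the middle and replicate 3 the lowest tumor. Over all genes tested 25.6% had that order, and among the genes higher than vehicle 53.3% did. Of the other acute phase genes tested, 28 of 40 (70%) had it. In the combination group, where the numbers name other mice, 5 of 8 members were ordered replicate 1, 2, 3, against 20.9% of all genes, 37.1% of the genes higher than vehicle and 21 of 40 (52.5%) of the other acute phase genes tested. ALB, the main hepatocyte product, followed the same order with H3B-6527, at 91849, 84390 and 60487 CPM, as did CYP7A1, a bile acid synthesis enzyme under repression by FGFR4 signaling, at 15.4, 12.7 and 4.65 CPM. DUSP6 ran the other way, at 2.70, 5.07 and 7.62 CPM. H3B-6527 tumors were also the most variable, with a median coefficient of variation of 13.8% over genes of 1 CPM or more, against 6.92% with vehicle. The part of depth in this order was not tested; replicate 3 was the smallest library of the series.

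**Figure D3:**
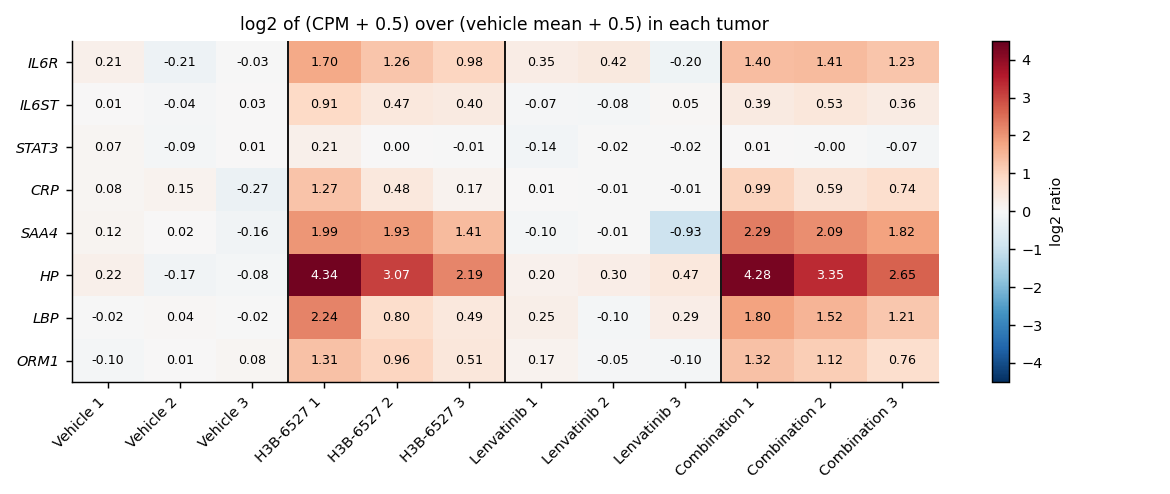
Log2 ratio of each tumor (columns, by group and replicate) to the vehicle mean, with 0.5 CPM added to both, for the 8 members tested (rows). The ratio of HP falls from 4.34 to 2.19 across the H3B-6527 tumors, and the added 0.5 CPM compresses the ratios of CRP and LBP.

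Some members have close copies between which reads can be split uncertainly. HP and HPR, the haptoglobin-related gene, both rose, and HP's share of their summed CPM was 38.9 to 40.5% with vehicle, 44.9 to 55.0% with H3B-6527, 26.9 to 45.5% with lenvatinib and 46.3 to 62.7% with the combination. Summed with HPR, the log2 fold change was 3.23 with H3B-6527 (edgeR adjusted p = 0.000187) and 3.21 with the combination (edgeR adjusted p = 0.000191), below that of HP counted alone. ORM1's share of ORM1 plus ORM2 stayed between 62.5 and 68.0% in all 12 tumors. The sum had a log2 fold change of 0.93 with H3B-6527 (edgeR adjusted p = 0.000761) and 1.05 with the combination (edgeR adjusted p = 0.000311). SAA4 took at least 93.1% of the sum with the read-through gene SAA2-SAA4 in every tumor. SAA2, the near-identical copy of SAA1, had 23 counts in all.

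**Figure D4:**
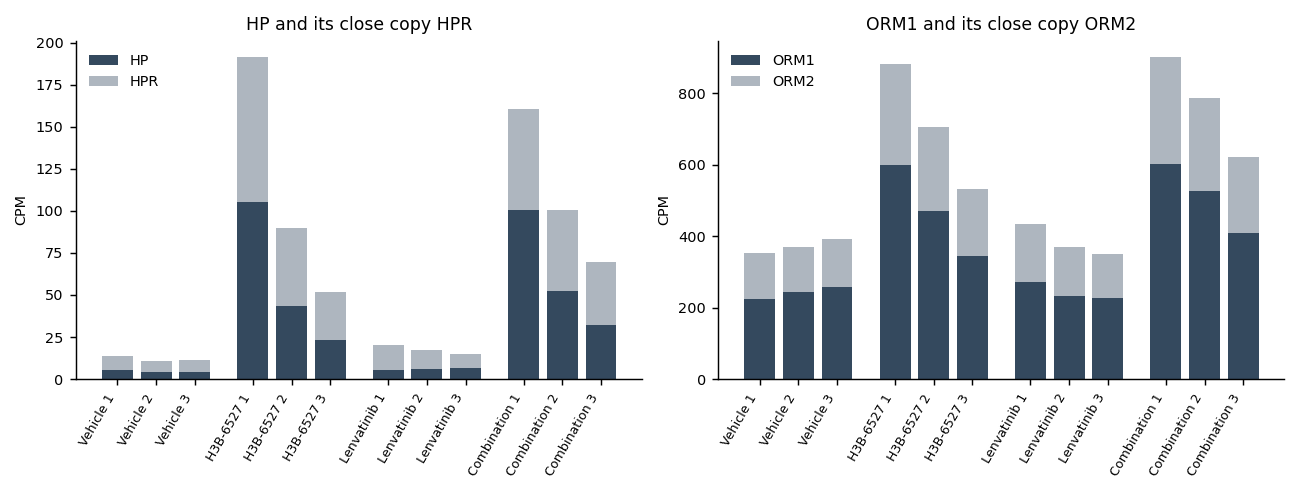
Stacked CPM (y axis, from 0) of HP with HPR and of ORM1 with ORM2 in each tumor (x axis, by group and replicate). Both copies of each pair are higher in the H3B-6527 and combination tumors than in the vehicle tumors.

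The rest of the pathway did not move as 1 block. Each list below is described by its counts, beside the background given above and a median log2 fold change of 0.01 over all genes tested with H3B-6527. With lenvatinib edgeR called no gene of these lists, and the lists were not run with other tools for that comparison. Its unadjusted p was under 0.05 for 3 of 13 STAT3 targets, 3 of 9 receptors and 5 of 27 positive acute phase proteins. For other acute phase cytokines it was 0 of 6 and for JAK kinases 0 of 3. Over all 15836 genes tested, 1698 had such a p.

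Among the ligands of the IL6 family, 4 of 9 could be tested with H3B-6527: 1 rose, 2 fell and 1 was not called. The riser, IL27, passed the filter only through H3B-6527 and combination tumors, and LIF, which fell, only through vehicle and lenvatinib tumors, so the count leans towards calls. LIF, which signals through LIFR and IL6ST, measured 3.02, 2.90 and 3.36 CPM with vehicle and 0.026, 0.054 and 0.084 CPM with H3B-6527, without overlap. Its log2 fold change was -5.84 ± 0.65 (edgeR adjusted p = 1.76e-05), and -4.75 ± 0.58 with the combination (-5.70 without combination replicate 2). CLCF1, another ligand of the family, fell by 1.63 on the log2 scale (edgeR adjusted p = 0.000928). IL27, a subunit of interleukin-27, rose by 3.02 (edgeR adjusted p = 0.000489) from a level of at most 0.153 CPM in any vehicle tumor (3.68 without vehicle replicate 2). Of the other acute phase cytokines tested, 3 rose and 2 fell of 6, and IL33, one of those that rose, also passed the filter only through H3B-6527 and combination tumors. IL1RN, the interleukin-1 receptor antagonist, rose by 1.65 and CXCL8, a neutrophil chemokine, fell by 1.82 on the log2 scale (edgeR adjusted p = 0.000298 and 0.00616). Without H3B-6527 replicate 1, CXCL8 fell by 2.53.

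Of 9 other receptor chains tested and reported here, 5 rose and 1 fell. IL11RA, the interleukin-11 receptor that also uses IL6ST, was at 19.2, 19.7 and 18.2 CPM with vehicle and 69.8, 74.0 and 46.9 CPM with H3B-6527 (log2 fold change 1.75 ± 0.14, edgeR adjusted p = 2.15e-06). IL1RAP, the accessory chain of the interleukin-1 receptor, rose by 1.22 (edgeR adjusted p = 4.11e-06). IL27RA, a chain of the interleukin-27 receptor, fell by 2.14 on the log2 scale (edgeR adjusted p = 0.000293). The proteases that shed IL6R, ADAM10 and ADAM17, were not called with H3B-6527 (0 of 2). With the combination ADAM17 was called lower (log2 fold change -0.25 ± 0.10, edgeR adjusted p = 0.0437), and the call was lost without the filter (edgeR adjusted p = 0.0627) and without any 1 tumor of the 6 compared other than combination replicate 2. JAK2 rose by 1.07 (edgeR adjusted p = 0.00024). JAK1 was called at a log2 fold change of 0.25 (edgeR adjusted p = 0.0456) and lost the call with library totals (0.13, edgeR adjusted p = 0.332), with voom, without the filter, with only both groups fitted, and without any 1 tumor of the 6 compared other than H3B-6527 replicate 2.

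STAT2, which acts in interferon signaling, rose by 0.84 on the log2 scale (edgeR adjusted p = 0.000112). Of 14 inhibitors of JAK-STAT signaling tested, 1 rose and 2 fell. SOCS1, a JAK inhibitor of the same family as SOCS3, measured 1.03, 0.662 and 0.841 CPM with vehicle and 0.154, 0.244 and 0.335 CPM with H3B-6527 (log2 fold change -1.83 ± 0.41, edgeR adjusted p = 0.00253). The phosphatase PTPN6 rose by 0.65 and PIAS3, an inhibitor of STAT3, fell by 0.52 on the log2 scale (edgeR adjusted p = 0.000509 and 0.00714). Scaled by library totals, 6 inhibitors were called lower in place of 2.

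Of 13 genes known as STAT3 targets in many cell types, 8 fell and 3 rose with H3B-6527, with a median log2 fold change of -0.92, and 7 fell and 3 rose with the combination. MYC, a growth-promoting transcription factor, went from 48.3, 46.2 and 47.1 CPM to 5.27, 7.13 and 8.38 CPM (log2 fold change -2.78 ± 0.17, edgeR adjusted p = 4.91e-07). FOS fell by 3.55, JUNB by 1.29 and PIM3 by 1.31 (edgeR adjusted p = 2.03e-05, 2.23e-05 and 2.97e-05). These 4 are growth-response genes that other pathways, MAPK signaling among them, also regulate. The cause of their falls was not tested. Scaled by library totals, 1 of the 13 rose in place of 3, with 8 falling.

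Of 13 transcription factors and regulators that act at acute phase promoters, 3 rose and 3 fell. HNF4A and CEBPA, liver-enriched factors, rose by 0.64 and 1.04 on the log2 scale (edgeR adjusted p = 9.93e-05 and 0.000116). Of the NF-kB subunits, RELA rose by 0.45 and NFKB1 fell by 0.70 (edgeR adjusted p = 0.00102 and 0.000315).

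Other proteins that the liver raises in an acute phase were mostly higher: 16 of 27 tested rose with H3B-6527 and 5 fell, and 17 rose and 2 fell with the combination. The fibrinogen chains FGA, FGB and FGG, which form the clot protein, rose by 2.38, 3.44 and 2.64 on the log2 scale with H3B-6527 (edgeR adjusted p = 2.59e-05, 2.96e-05 and 2.15e-05). HPX, the heme-binding hemopexin, went from 70.0, 58.8 and 63.4 CPM to 704, 561 and 351 CPM (log2 fold change 3.07 ± 0.25, edgeR adjusted p = 3.41e-06).

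Proteins that the liver lowers in an acute phase were also mostly higher: 10 of 13 rose and 2 fell with H3B-6527, and 10 rose and 1 fell with the combination. Their median log2 fold change with H3B-6527 was 1.24, and that of the positive list was 0.81. The positive list leaves out the members, HP, LBP, CRP and ORM1 among them, so these medians do not compare all positive with all negative genes. HRG, histidine-rich glycoprotein, went from 3.94, 5.40 and 3.78 CPM to 156, 107 and 61.6 CPM (log2 fold change 4.62 ± 0.31, edgeR adjusted p = 1.4e-06). FETUB, a liver protease inhibitor, rose by 4.73, F12, coagulation factor XII, by 2.05, and APOA1, the main protein of high-density lipoprotein, by 2.02 (edgeR adjusted p = 2.11e-05, 1.53e-05 and 8.17e-06). Genes of both acute phase directions rose in the same tumors, and the hepatocyte marker sum given above is not separate from them: 5 of its 10 genes are in the negative list and 2 in the positive list.

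**Figure D5:**
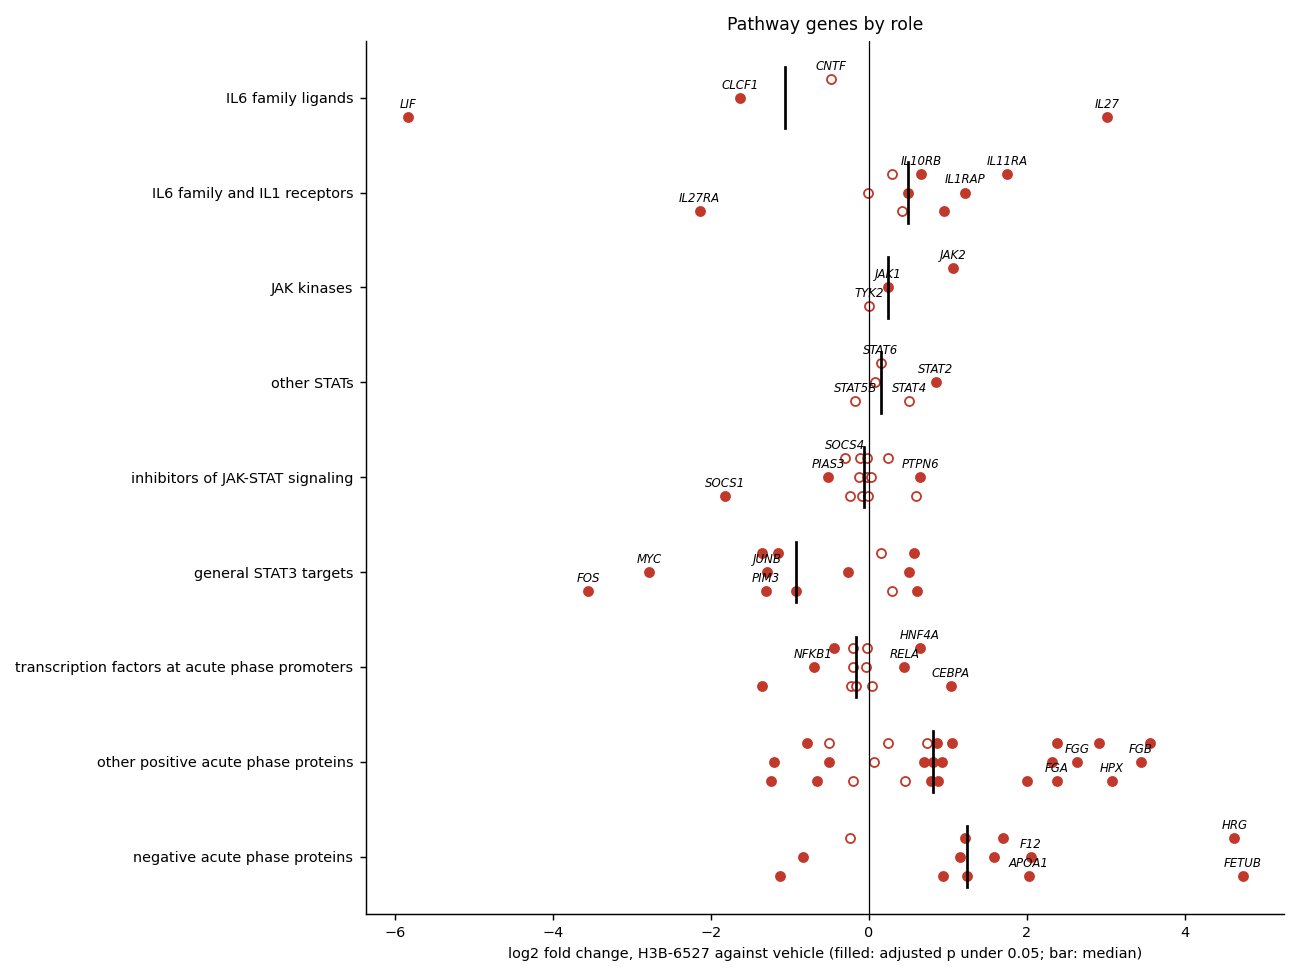
Log2 fold change of H3B-6527 against vehicle (x axis) for the tested genes of 9 lists (y axis); filled points have an adjusted p under 0.05, bars are list medians and the 4 genes with the smallest p are named. The medians are -0.92 for the STAT3 targets, 0.81 for the positive acute phase proteins other than the members and 1.24 for the negative ones.

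Markers of other cell types were mostly low. Of 11 leukocyte and Kupffer cell markers, 5 were under 1 CPM in every tumor, C1QA at 0 among them, and the summed level was 196 to 214 CPM with vehicle and 149 to 206 CPM with H3B-6527. Of the 8 tested, 3 rose and 1 fell with H3B-6527. Most of the sum came from LYZ, which went from 114, 96.9 and 111 CPM with vehicle to 3.83, 8.89 and 15.8 CPM, and from CD68, which went from 83.7, 113 and 82.1 CPM to 196, 143 and 128 CPM. CD68, a lysosomal protein, was highest in H3B-6527 replicate 1, as the members were, and its part in their levels was not tested. The sum of 7 fibroblast markers was 50.2 to 56.0 CPM with vehicle and 27.1 to 36.3 CPM with H3B-6527. Most of it came from PDGFRB, at a mean of 43.8 CPM with vehicle and 27.2 CPM with H3B-6527. In every tumor 3 of the 7 were under 1 CPM, and of the 4 tested 3 fell with H3B-6527 and 1 was not called. Among those tested, COL3A1 was past the filter's cutoff in 3 vehicle, 3 lenvatinib, 1 combination and 0 H3B-6527 tumors, so this count leans towards falls. The 6 endothelial markers in the table were each under 1 CPM in every tumor. Host cells were looked up under human symbols only, so these values describe human-assigned reads.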

How the data were processed

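The authors deposited expected counts, the estimated number of reads that kallisto assigns, summed to human gene symbols; 40.3% of the values are not whole numbers. Per the submitters' processing notes STAR, kallisto and the builds GRCh37 and GRCm38 were used; versions and roles are not given in the sources used here, nor is whether reads of the mouse host were removed. Per the labels' protocols, RNA came from tumor fragments.

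Counts were rounded to whole numbers, and 15836 genes passed filterByExpr on the 4 groups. All 12 libraries entered 1 edgeR 4.0.16 fit in R 4.3.3 (TMM factors, robust quasi-likelihood F-test, 2-sided), with Benjamini-Hochberg adjustment over all genes tested and a threshold of 0.05. The SE is the absolute log2 fold change over the root of F. Low counts (CRP, LBP and SAA1 among them) also got exact binomial 95% intervals of a ratio, which pool a group's tumors and leave out differences between them. Alternatives used library totals, DESeq2 1.42.0, limma 3.58.1 (voom), no filter, only the groups compared, summed close copies, and each library left out. Except without the filter, the genes entering each fit were held fixed, apart from copies merged into their members when summed. DESeq2 can leave a gene without an adjusted p. CRP therefore has 11 alternatives, and the other members 12, for lenvatinib against vehicle and for the combination against H3B-6527. The code was tested on simulated data.

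The members and lists were chosen with earlier results of these data known. Named genes are the members, the close copies and the checks DUSP6, CYP7A1 and ALB. Up to 4 genes per list with the smallest p for H3B-6527 against vehicle are also named. LYZ, CD68, PDGFRB and COL3A1 were chosen after their values were seen. Replicate numbers follow accession order and pair no mice. Some genes of the pathway lists are not reported here. Human sequences and coordinates were not used here.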

Additional observations from a re-analysis of the deposited data

How the results depend on the processing

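No paired analysis was possible because the labels carry no replicate numbers. Of 710 values of members under alternatives, 655 kept their direction and side of the threshold, 11 lost a call and 44 changed sign. All 11 losses are given above beside CRP, LBP and IL6ST, and the cause was not tested. The 7 members called against vehicle with H3B-6527 numbered 6 to 7 with any 1 library left out, and 7 in each case with the combination.

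Among counts over all genes, lenvatinib against vehicle gave 245 calls with DESeq2, 8 with voom, 41 without the filter, 160 with only both groups fitted, and 0 to 13 with a library left out. The combination against H3B-6527 gave 98 with DESeq2, 13 without the filter, 1 with only both groups fitted, and 0 to 16 with a library left out. Non-additivity gave 18 with DESeq2. Scaling by library totals moved the share of rises among calls from 47.7% to 34.5% for the combination against lenvatinib and from 49.9% to 39.1% for H3B-6527 against lenvatinib.

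Each sign change was in a value that was not called. With library totals, STAT3 was -0.048 for H3B-6527 against vehicle and -0.062 for the combination against lenvatinib, ORM1 was -0.033 for lenvatinib against vehicle, and IL6R was -0.019 for the combination against H3B-6527. With voom, CRP was 0.33 for lenvatinib against vehicle and -0.054 for non-additivity. Summed with HPR, HP was -0.015 for the combination against H3B-6527.

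With a library left out, STAT3 ran from -0.0051 to 0.113 for H3B-6527 and from -0.061 to 0.019 for the combination against vehicle. For lenvatinib against vehicle, CRP ran from -0.49 to 0.45 and ORM1 from -0.073 to 0.063. For the combination against H3B-6527, the ranges were -0.14 to 0.22 for IL6R, -0.25 to 0.94 for CRP, -0.44 to 0.88 for HP, -0.25 to 1.54 for LBP and -0.054 to 0.33 for ORM1. For non-additivity they were -0.38 to 0.95 for CRP, -0.072 to 0.045 for STAT3, -0.40 to 0.0016 for IL6R, -0.24 to 0.025 for IL6ST, -0.80 to 0.52 for HP, -1.80 to 0.10 for LBP and -0.061 to 0.32 for ORM1.

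Pathway genes and lists were run under the same alternatives for H3B-6527 and the combination against vehicle only. This choice was made after seeing the data. The genes run singly were the named ones, those of each list with the smallest p for H3B-6527 against vehicle. Other pathway genes and the other comparisons were not covered. For these named genes, 1062 of 1104 values kept their direction and side of the threshold. Of the rest, 20 lost a call, 8 gained one and 14 changed sign. The losses were those of JAK1 and ADAM17 given above and those of SOCS1 with the combination. SOCS1 lost its call without the filter (edgeR adjusted p = 0.0543) and without vehicle replicate 1 or 3 or combination replicate 1 or 3 (edgeR adjusted p up to 0.146). The gains were in STAT5B, STAT6, SOCS4 and CNTF. Sign changes were in uncalled values: with library totals ADAM10 was -0.058 with H3B-6527 and -0.11 with the combination, TYK2 was -0.11 with H3B-6527 and JAK1 was -0.14 with the combination. Without the filter TYK2 was -0.0043 and JAK1 -0.0014. With a library left out TYK2 ran from -0.044 to 0.069 with H3B-6527, and with the combination JAK1 ran from -0.014 to 0.040 and STAT4 from -0.27 to 0.32.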
